A study of Mus musculus with 6 samples.

Results

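Genes of glycolysis and of the cellular response to low oxygen were measured in T cells sorted from mouse skin. The list holds 34 genes, picked by symbol from 15106 genes in the deposited count table, and all 34 were found there. Of these, 22 encode enzymes of glycolysis or regulators of its entry and exit, and 12 belong to oxygen sensing or are known targets of hypoxia-inducible factor (HIF). There were 4 libraries of regulatory T cells (Tregs, skin, age 6 weeks, FOXP3-GFP) and 2 libraries of effector T cells (Teffs, skin, age 6 weeks, FOXP3-GFP). Both groups therefore carried the same reporter, in which GFP marks expression of the Treg-defining factor FOXP3, and no treatment is named for either. The labels do not give the animals behind each library, so p-values measure the spread between libraries, which may be partly technical.

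Glycolysis splits glucose into pyruvate through 10 enzymatic steps, after which lactate dehydrogenase can turn pyruvate into lactate. Effector T cells are known to raise glycolysis when they are activated, whereas Tregs are known to depend more on mitochondrial oxidation. The factor HIF-1α is hydroxylated and destroyed while oxygen is plentiful. When oxygen falls, or in activated T cells, it accumulates and switches on glycolytic genes together with genes of mitophagy, collagen hydroxylation and vessel growth. HIF binds a short DNA core in target promoters.

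That core was looked for in RefSeq promoter windows of 300 bases (250 before to 50 after a gene's start, GRCm38.p6). The letters searched were ACGTG and GCGTG on both strands, and overlapping matches, such as those on either strand of CACGTG, counted once. The table matched 32 of the 34 genes, and 30 of these held a core in at least 1 window. By window the share was 81.2% (39 of 48), against 58.8% of windows of genes in the count table and 43.8% of all 32851 windows. Windows of 3 genes are shown with the cores in capitals: P4ha1 and Aldoc, because they had some of the clearest Treg differences among members with an entry, and Ldha, because it was among the most abundant members. A match describes letters and not a bound site.

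P4ha1 (chr10:59323046-59323345, plus strand): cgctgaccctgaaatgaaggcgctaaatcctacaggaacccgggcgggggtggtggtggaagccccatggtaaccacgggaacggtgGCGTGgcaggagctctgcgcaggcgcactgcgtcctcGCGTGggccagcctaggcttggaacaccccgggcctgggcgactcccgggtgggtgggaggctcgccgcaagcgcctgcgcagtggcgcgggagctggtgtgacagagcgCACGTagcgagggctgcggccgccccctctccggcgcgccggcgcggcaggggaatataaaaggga
Aldoc (chr11:78322823-78323122, plus strand): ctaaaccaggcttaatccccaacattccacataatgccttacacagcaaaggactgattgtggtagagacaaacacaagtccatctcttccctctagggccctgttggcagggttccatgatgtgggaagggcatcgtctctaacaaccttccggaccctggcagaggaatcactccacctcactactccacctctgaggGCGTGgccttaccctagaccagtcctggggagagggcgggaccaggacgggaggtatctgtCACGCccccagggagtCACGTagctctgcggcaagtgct
Ldha (chr7:46845554-46845853, plus strand): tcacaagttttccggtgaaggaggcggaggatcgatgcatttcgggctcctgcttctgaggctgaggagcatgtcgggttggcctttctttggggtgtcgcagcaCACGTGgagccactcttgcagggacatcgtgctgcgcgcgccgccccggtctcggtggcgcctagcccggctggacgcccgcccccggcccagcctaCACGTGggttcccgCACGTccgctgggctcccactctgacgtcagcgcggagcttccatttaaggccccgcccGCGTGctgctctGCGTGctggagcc

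The P4ha1 and Aldoc windows held 3 separate cores each, and the Ldha window held 5. Ldha and Aldoc each have a further window in the RefSeq table, with 2 cores for Ldha and 1 for Aldoc, and the window with most cores is the one printed.

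Counts in genes came to 5582022 to 7046685 in Treg libraries and to 7468778 and 4902126 in Teff libraries. Levels are given in CPM, that is counts divided by each library's scaled total. Foxp3 was at 103 to 232 CPM in Tregs and at 11.2 and 7.15 CPM in Teffs. The T cell receptor component Cd3e was at 553 to 1221 CPM in Tregs and at 1286 and 1107 CPM in Teffs. Treg 3 and, less so, Teff 1 stood apart through transcripts of fibroblasts and keratinocytes. Treg 4 had the highest sum of macrophage and dendritic cell markers, which is given further below. The summed level of 10 fibroblast markers was 3307 CPM in Treg 3 and 4.41 to 10.2 CPM in the other Treg libraries, against 436 CPM in Teff 1 and 9.27 CPM in Teff 2. The 9 keratinocyte markers summed to 984 CPM in Treg 3 and 21.2 to 28.9 CPM in the other Tregs, against 161 and 64.5 CPM in Teffs.

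None of the glycolysis and hypoxia genes passed the test between Tregs and Teffs. Of the 33 members with enough counts for testing, 0 rose and 0 fell in Tregs at an edgeR quasi-likelihood adjusted p under 0.05, against 0.0425% of all 11775 genes tested (0.034% higher and 0.00849% lower in Tregs). The smallest adjusted p was 0.658. The median SE over members was 1.01 on the log2 scale, so a missed threshold does not show that a gene was at the same level in both groups. Unadjusted p was under 0.05 for 3 members (Ndrg1, P4ha1 and Aldoc), against 4.73% of all genes. DESeq2 called 1 member, Ndrg1, against 1.78% of the genes to which it gave an adjusted p. The authors' deposited table has 0 members among its 43 genes with a false discovery rate under 0.05.

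Fold changes differed in size between the roles. Among 21 tested glycolytic enzymes and gates the median log2 fold change, Treg minus Teff, was 0.16, and 17 of them lay within 0.5 of 0. The 9 tested HIF targets had a median of 1.04, and 8 of 9 had a higher fitted level in Tregs. Over all genes tested the median was 0.07 and 53.5% were above 0. These figures describe the list and carry no test of their own. HIF also switches on glycolytic genes, so the roles do not part HIF targets from all other members. Hk2, which HIF induces, was counted among the enzymes (log2 fold change -0.44) and Egln3 under oxygen sensing (1.11).

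**Figure D1:**
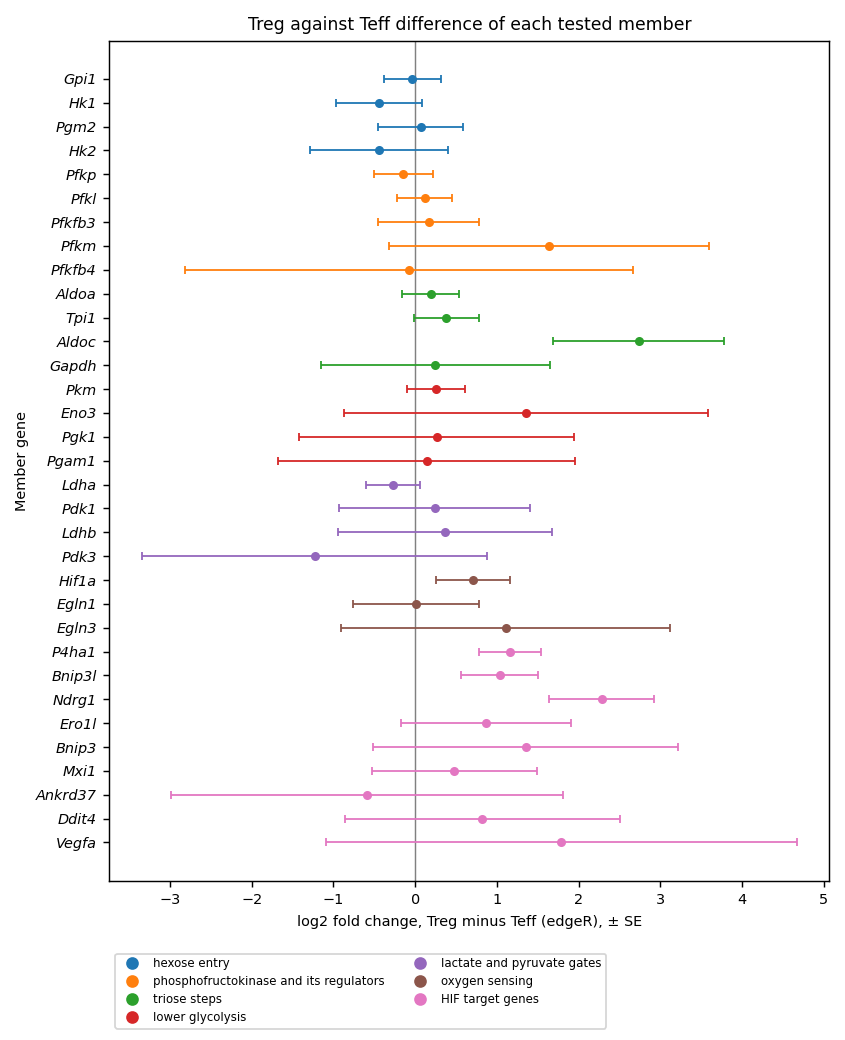
Fitted log2 fold change of each tested member (horizontal axis, Treg minus Teff, bars are ± SE from edgeR), grouped and coloured by role. Abundant enzymes such as Gpi1, Aldoa, Pkm and Ldha sit within 0.5 of 0, whereas Ndrg1 (2.28), P4ha1 (1.17) and Bnip3l (1.04) lie to the right.

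The HIF targets with the clearest difference were Ndrg1, P4ha1 and Bnip3l, for which every Treg library lay above both Teff libraries. That pattern was found in 3 of the 33 tested members, against 5.52% of all genes tested. All 3 were listed under HIF targets, a role of 9 genes. The role was set with earlier results known and leaves out other HIF-induced members, such as Hk2 and Egln3. None of the 33 members had every Treg library below both Teffs, against 9.49% of all genes. Groups without overlap in either direction were thus found in 3 of 33 members, against 15% of all genes.

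Ndrg1 encodes a cytoplasmic protein induced by hypoxia and cell stress (chr15:66929318-66969640, GRCm38, minus strand). It was at 71.6, 188, 157 and 124 CPM across Treg 1 to Treg 4, against 37.6 and 17.8 CPM in Teff 1 and Teff 2. The groups did not overlap, and the lowest Treg library was still above the higher Teff. The log2 fold change was 2.28 ± 0.64 (SE), with a 95% interval of 0.81 to 3.75, and edgeR's adjusted p was 0.658. In DESeq2 the adjusted p was 0.0236, and over the other alternatives, all in edgeR, it ran from 0.395 to 1. Of its exonic bases, 8.43% also lie in exons of Gm17035 or Gm2895.

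P4ha1 encodes a catalytic subunit of collagen prolyl 4-hydroxylase (chr10:59323296-59373304, plus strand). It was counted at 205, 284, 231 and 232 CPM across Treg 1 to Treg 4, against 125 and 87.3 CPM in Teff 1 and Teff 2. Treg libraries were close together here, with a mean of 238 ± 33.2 CPM (SD, n = 4), against 106 ± 26.6 CPM in Teffs (SD, n = 2). This gave a log2 fold change of 1.17 ± 0.38 (95% interval 0.28 to 2.05, edgeR adjusted p = 0.721). P4ha1 was at 205 to 284 CPM in the Treg libraries with fibroblast sums of 4.41 to 10.2 CPM. In Treg 3, where that sum was 3307 CPM, P4ha1 was at 231 CPM. The part of fibroblast RNA in the P4ha1 level was not tested.

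Bnip3l encodes NIX, a receptor on the mitochondrial surface that marks mitochondria for autophagy (chr14:66985239-67008877, minus strand). Treg 1 to Treg 4 had 230, 130, 139 and 148 CPM of it, against 99.2 and 58.5 CPM in the Teff libraries. Treg 1 was the highest, and all Treg libraries were above both Teffs. The log2 fold change was 1.04 ± 0.47, and its 95% interval of -0.05 to 2.12 reached 0 (edgeR adjusted p = 1). Its processed pseudogene Bnip3l-ps shares 24.4% of its 50-base windows.

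The paralog Bnip3, also a mitophagy receptor, was less even. It was at 47.3, 65.4 and 52.3 CPM in Treg 1, Treg 3 and Treg 4 and had no counts in Treg 2, against 23.4 and 8.88 CPM in Teffs. So 3 Treg libraries were above both Teffs and 1 was below both. The log2 ratio of Bnip3 to Bnip3l averaged -3.38 ± 3.56 in Tregs (SD, n = 4) and -2.38 ± 0.43 in Teffs (SD, n = 2). An exact two-sided permutation test gave p = 0.933 for this ratio, where 4 against 2 libraries cannot go below 0.0667. Without Treg 2 the difference in log2 ratio, Treg minus Teff, was 0.76.

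Ero1l, an oxidase that drives disulfide formation in the endoplasmic reticulum, was at 6.47, 98.7, 56.1 and 117 CPM across Treg 1 to Treg 4, against 30.2 and 46.4 CPM in Teffs. Treg 1 was below both Teffs and the other Tregs were above them. Mxi1, a MAX partner that opposes MYC, was at 14.1 to 71.3 CPM in Tregs and at 25.3 and 24.7 CPM in Teffs. Ddit4, the mTORC1 inhibitor REDD1, was at 3.67 to 32.7 CPM in Tregs and at 10.95 and 3.86 CPM in Teffs. For both of these the highest value was in Treg 3, and without that library their log2 fold changes were -0.14 and -0.15.

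Vegfa, which encodes the main growth factor of blood vessels, was scarcely counted. Its counts were 2, 0, 59 and 29 in Treg 1 to Treg 4, against 0 and 11 in Teffs. The groups overlapped, with a fitted log2 fold change of 1.79 ± 2.88 (edgeR adjusted p = 1) that ran from 0.50 to 7.54 when 1 library was left out. Ankrd37, an ankyrin repeat gene known as a HIF-1 target, was at 28.8 and 26.0 CPM in Treg 1 and Treg 3 and had no counts in Treg 2 and Treg 4, against 32.1 and 9.27 CPM in Teffs. It was the only gene listed under HIF targets with a fitted level lower in Tregs (log2 fold change -0.59 ± 2.40, edgeR adjusted p = 1).

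Summed over the 9 HIF targets, CPM came to 621, 738, 789 and 697 across Treg 1 to Treg 4, against 384 and 259 CPM in Teff 1 and Teff 2. The ranges did not meet. P4ha1, Bnip3l and Ndrg1 made up most of the sum, and each was already above both Teffs in every Treg library. The sum is therefore no separate support. Fibroblast sums were 3307 CPM in Treg 3, 436 CPM in Teff 1 and 4.41 to 10.2 CPM in the other libraries. The part of fibroblast RNA in the HIF target sum was not tested. When 1 library at a time was left out, 6 to 9 of the 9 had a positive fold change, with 6 when Treg 3 was dropped and 9 when Teff 1 was dropped. In bulk libraries, fewer cells of a type and less RNA per cell cannot be told apart.

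**Figure D2:**
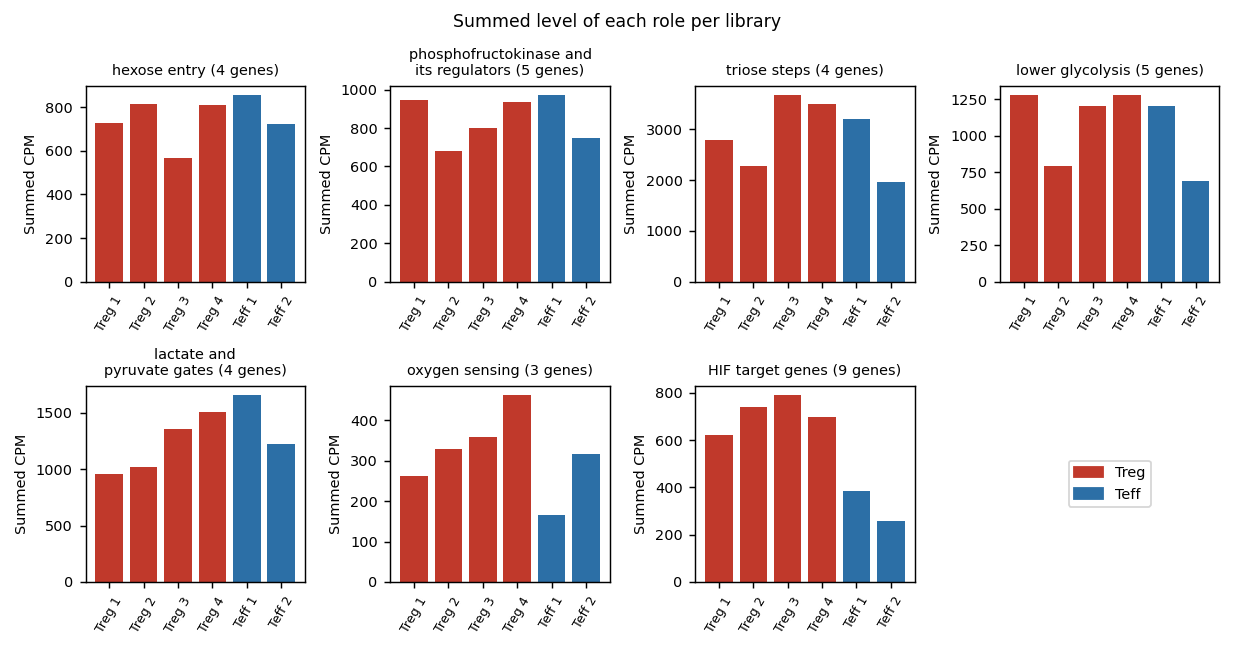
Summed CPM of the members of each role (vertical axis, from 0) in each library (bars, Tregs left, Teffs right). In the HIF target panel the Treg bars of 621 to 789 CPM all exceed the Teff bars of 384 and 259 CPM, and in the glycolysis panels the groups overlap.

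Levels of other transcripts are given for the same libraries. Of 2 cell division genes looked at, Mki67 was at 23.7 to 321 CPM in Tregs and at 504 and 578 CPM in Teffs (edgeR adjusted p = 1), and Top2a was at 134 to 234 CPM in Tregs and at 657 and 595 CPM in Teffs (edgeR adjusted p = 0.228). Neither passed the test. Macrophage and dendritic cell markers, 8 of them and mostly Cd74, summed to 2364, 1674, 629 and 7681 CPM across Treg 1 to Treg 4. In Teffs they summed to 1235 and 3508 CPM. Single markers differed: Itgax was at 24.6 CPM in Treg 4 and had no counts in the other Tregs or in Teff 2, whereas Lyz2 was counted in every library. Lyz2 was at 65.35 to 462.8 CPM in Tregs, highest in Treg 4, and at 185.4 and 136 CPM in Teffs. The dissociation stress response, with 10 genes, summed to 1215 to 3215 CPM in Tregs and to 1137 and 1937 CPM in Teffs. The part of these in the HIF target levels was not tested.

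Oxygen sensing genes overlapped between the groups. Hif1a, which encodes the oxygen-regulated HIF-1α subunit, was at 203, 231, 276 and 363 CPM across Treg 1 to Treg 4, against 105 and 223 CPM in Teff 1 and Teff 2. Treg 2 to Treg 4 were above both Teffs and Treg 1 lay between them. Its log2 fold change was 0.71 ± 0.45 (95% interval -0.33 to 1.74, edgeR adjusted p = 1), and it ranged from 0.25 to 1.33 when 1 library was left out. HIF-1α is controlled largely through protein stability, which these counts do not measure.

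Egln1, the prolyl hydroxylase PHD2 that marks HIF-1α for destruction, was at 15.8, 98.1, 79.9 and 89.0 CPM across Treg 1 to Treg 4, against 52.5 and 87.5 CPM in Teffs (log2 fold change 0.01 ± 0.77). Egln3, the paralog PHD3 and itself a HIF target, was at 43.3, 0.478, 2.27 and 9.53 CPM across Treg 1 to Treg 4, against 7.65 and 5.21 CPM in Teffs. Treg 1 thus had the lowest Egln1 and the highest Egln3 of all libraries. The log2 fold change of Egln3 was 1.11 ± 2.01 (edgeR adjusted p = 1) with every library and -0.65 without Treg 1.

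**Figure D3:**
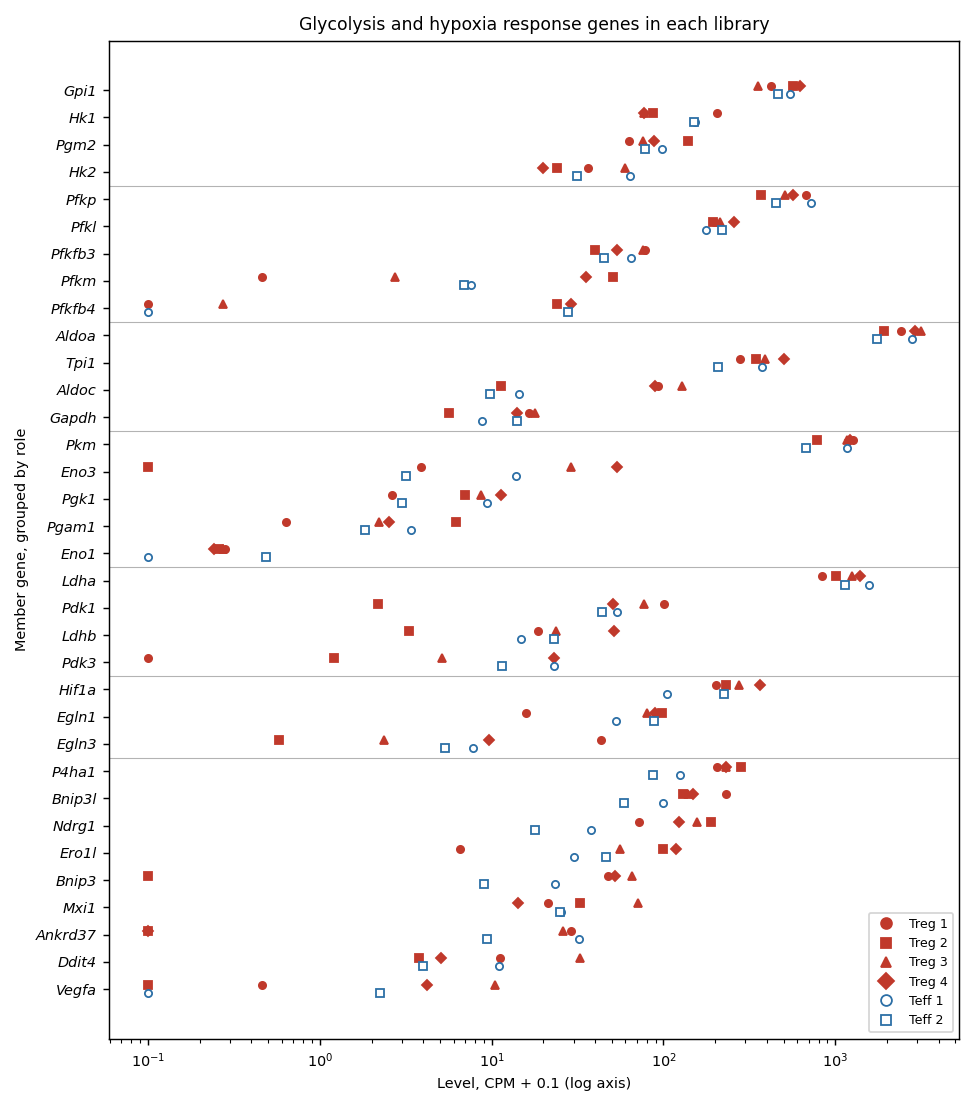
Level of each member in every library (horizontal axis, CPM + 0.1, log scale), with filled red symbols for Treg 1 to Treg 4 and open blue symbols for Teff 1 and Teff 2. Points of the abundant enzymes cluster tightly, while Pfkfb4, Pfkm, Eno3, Bnip3, Ankrd37 and Egln3 spread over more than an order of magnitude among Tregs.

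Glycolytic enzymes with high levels overlapped between the groups. Per kilobase of exon, the most abundant member over all libraries was Aldoa at 853 CPM per kb, followed by Ldha at 362, Pkm at 209, Tpi1 at 127 and Gpi1 at 76.8 CPM per kb. Their log2 fold changes ran from -0.27 for Ldha to 0.38 for Tpi1. With 1 library left out the sign turned for Aldoa, Pkm, Tpi1 and Gpi1 and not for Ldha.

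At the entry of the pathway, Gpi1, which converts glucose 6-phosphate to fructose 6-phosphate, was at 424, 563, 354 and 625 CPM across Treg 1 to Treg 4, against 543 and 463 CPM in Teffs. Both Teff values fell inside the Treg range (log2 fold change -0.03 ± 0.35, 95% interval -0.83 to 0.77, edgeR adjusted p = 1). Hk1, the constitutive hexokinase, was at 205, 86.4, 76.5 and 76.7 CPM across Treg 1 to Treg 4, against 152 and 150.3 CPM in Teffs. Treg 1 was above both Teffs and the other 3 Tregs were well below them (log2 fold change -0.44 ± 0.53, edgeR adjusted p = 1).

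Hk2, the hexokinase that HIF and activation signals induce, was at 36.5, 23.9, 59.8 and 19.8 CPM across Treg 1 to Treg 4, against 63.6 and 31.5 CPM in Teffs. Teff 1 was the highest library, followed by Treg 3 (log2 fold change -0.44 ± 0.84, edgeR adjusted p = 1). Per kilobase, Hk2 was below Hk1 in both groups, at 5.86 against 13.0 CPM per kb in Tregs and 7.96 against 17.7 CPM per kb in Teffs. The log2 ratio of Hk2 to Hk1 was -1.65 ± 0.91 in Tregs and -1.75 ± 0.70 in Teffs (SD, n = 4 and 2, exact permutation p = 1). Pgm2, a phosphoglucomutase, was at 62.8 to 139 CPM in Tregs and at 97.4 and 77.4 CPM in Teffs.

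Phosphofructokinase, the committed step, was present mainly as the platelet and liver isoforms. Pfkp was at 674, 372, 511 and 564 CPM across Treg 1 to Treg 4, against 722 and 452 CPM in Teffs (log2 fold change -0.15 ± 0.36, 95% interval -0.99 to 0.69, edgeR adjusted p = 1). Pfkl was the steadiest tested member across Tregs, at 215 ± 28.3 CPM in Tregs (SD, n = 4) and 198 ± 29.5 CPM in Teffs (SD, n = 2). The log2 ratio of Pfkp to Pfkl was 1.28 ± 0.36 in Tregs and 1.53 ± 0.69 in Teffs (exact permutation p = 0.6).

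The muscle isoform Pfkm was split between libraries of the same group. It was at 0.36, 51.0, 2.62 and 35.3 CPM across Treg 1 to Treg 4, against 7.52 and 6.76 CPM in Teffs, so 2 Tregs lay above both Teffs and 2 below both. The 9 skeletal muscle markers summed to 21.9, 53.1, 131 and 43.1 CPM across Treg 1 to Treg 4. In Teffs they summed to 68.1 and 24.3 CPM. Tpm2 made up 78.5 CPM of the sum in Treg 3, Atp2a1 made up 40.4 CPM in Treg 2 and Mylpf made up 24.2 CPM in Treg 4. The part of muscle RNA in the Pfkm level was not tested. Same-strand exons of Gm26513 take in 10.2% of its exonic bases.

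Pfkfb3 and Pfkfb4 make fructose 2,6-bisphosphate, the activator of phosphofructokinase. Pfkfb3 was at 39.7 to 77.7 CPM in Tregs and at 64.9 and 44.8 CPM in Teffs. Pfkfb4 was at 23.8 and 28.9 CPM in Treg 2 and Treg 4 and at 27.8 CPM in Teff 2, and it had 1 count in Treg 3 and 0 in Treg 1 and Teff 1. This on-or-off distribution cut across the groups.

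Among the triose steps, aldolase A carried the bulk of the counts and aldolase C had the largest fold change. Aldoa was at 2409.5, 1908, 3143 and 2900.1 CPM across Treg 1 to Treg 4, against 2805 and 1740.4 CPM in Teffs. The groups overlapped, with a log2 fold change of 0.19 ± 0.35 (SE, edgeR adjusted p = 1). Tpi1, triosephosphate isomerase, was at 279 to 505 CPM in Tregs and at 377 and 207 CPM in Teffs.

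Aldoc, the aldolase known from brain (chr11:78322968-78327781, GRCm38, plus strand), had the largest fold of the list. It was at 92.8, 11.2, 127 and 89.3 CPM across Treg 1 to Treg 4, against 14.4 and 9.66 CPM in Teff 1 and Teff 2. Treg 1, Treg 3 and Treg 4 stood several-fold above both Teffs, and Treg 2 lay between the Teffs. The log2 fold change was 2.73 ± 1.05 (95% interval 0.30 to 5.17), and edgeR's adjusted p was 0.883. With 1 library left out it ran from 2.43 to 3.10, and with the replicate number as a block it was 1.46. No 50-base window of Aldoc is shared with another annotated gene.

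Lower in the pathway, Pkm, which encodes pyruvate kinase M, was at 1268.5, 782, 1165.5 and 1211.5 CPM across Treg 1 to Treg 4, against 1175 and 679 CPM in Teffs. Treg 2 and Teff 2 were low and the other libraries were alike (log2 fold change 0.26 ± 0.36, 95% interval -0.58 to 1.09, edgeR adjusted p = 1). An overlapping gene on the same strand covers 15.3% of its exonic bases. Eno3, the muscle enolase, was at 3.78, 0, 29.0 and 53.3 CPM across Treg 1 to Treg 4, against 13.7 and 3.09 CPM in Teffs.

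Several enzymes that every cell uses were nearly uncounted. Gapdh was at 5.58 to 17.8 CPM in Tregs and 8.71 and 13.9 CPM in Teffs. Pgk1, phosphoglycerate kinase, was at 2.52 to 11.2 CPM in Tregs and 9.24 and 2.90 CPM in Teffs. Pgam1, phosphoglycerate mutase, was at 0.539 to 6.06 CPM in Tregs and 3.30 and 1.74 CPM in Teffs. Eno1, the widely expressed enolase, had 1 count in each Treg library and 0 and 2 counts in Teffs, and was the sole member left out of testing. These genes have near-identical copies in the mouse genome.

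The overlap in sequence was measured as the share of 50-base windows of their coding transcripts that also occur, on either strand, in transcripts of another GENCODE M21 gene. It was 58.4% for Gapdh, 68.0% for Pgk1, 41.5% for Pgam1 and 49.5% for Eno1. For comparison, 7 enzymes were picked as examples (Gpi1, Pfkl, Pfkp, Aldoa, Tpi1, Pkm and Ldha). They were counted at 31.4 to 853 CPM per kb and shared 0.0532% to 24.5%. Pgm2, at 34.8 CPM per kb, was not among them and shared none. Gapdh shared windows with 222 other annotated genes. The retrocopy Eno1b holds 1395 of the 1428 shared windows of Eno1 and was itself at 6.29 to 20.1 CPM in Tregs and 23.0 and 10.8 CPM in Teffs. In each column of the deposited table, 61.2% to 66.2% of the total stood in the row for reads without a unique alignment, outside the gene counts. Sharing and level did not go together throughout the list. Bnip3 shared 59.1% of its windows and was at 14.5 CPM per kb, while Pfkfb4 and Pdk3 shared none and were at 2.76 and 4.12 CPM per kb, and Vegfa shared 0.22% and was at 0.658 CPM per kb. The levels of Gapdh, Pgk1, Pgam1, Eno1 and Bnip3 are reported as uncertain, and the part of shared sequence in them was not tested.

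For each of Gapdh, Pgk1 and Pgam1, 1 window is shown to make the identity visible. All bases are identical in the copies, so none is capitalised.

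Gapdh window (gene on chromosome 6): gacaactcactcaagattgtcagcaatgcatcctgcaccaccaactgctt
Pgk1 window (gene on chromosome X): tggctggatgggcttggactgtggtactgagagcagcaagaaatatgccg
Pgam1 window (gene on chromosome 19): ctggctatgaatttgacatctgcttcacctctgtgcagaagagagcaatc

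The Gapdh window occurs in 84 other annotated genes, the Pgk1 window in 3 and the Pgam1 window in 2 (Pgam1-ps1 and Pgam1-ps2). A read of 50 bases from any of them has more than 1 exact origin. The labels do not state how long the reads were.

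**Figure D4:**
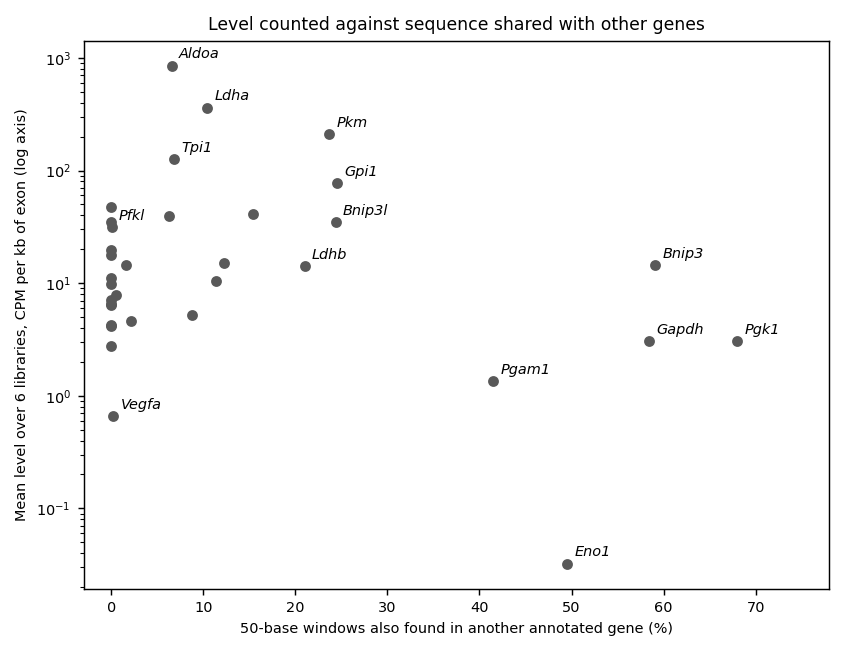
Mean level of each member over 6 libraries (vertical axis, CPM per kb of exon, log scale) against the share of its 50-base windows found in another annotated gene (horizontal axis, %). Gapdh, Pgk1, Pgam1 and Eno1, with 41.5% to 68.0% shared, lie between 0.0323 and 3.08 CPM per kb, and Bnip3 with 59.1% lies at 14.5 CPM per kb.

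At the exit of glycolysis, Ldha, the lactate dehydrogenase subunit that favours lactate formation, was at 839, 1011, 1252 and 1385 CPM across Treg 1 to Treg 4, against 1564 and 1144 CPM in Teff 1 and Teff 2. Teff 1 was the highest library and Teff 2 lay within the Treg range. Its log2 fold change was -0.27 ± 0.33 (95% interval -1.03 to 0.49, edgeR adjusted p = 1). Ldhb, the subunit found in oxidative tissues, was at 18.5, 3.19, 23.6 and 51.3 CPM across Treg 1 to Treg 4, against 14.6 and 23.0 CPM in Teffs (log2 fold change 0.36 ± 1.31, edgeR adjusted p = 1). Per kilobase, Ldha exceeded Ldhb in both groups, at 339 against 15.4 CPM per kb in Tregs and 409 against 11.98 CPM per kb in Teffs. The log2 ratio of Ldha to Ldhb was 6.03 ± 1.49 in Tregs and 6.16 ± 0.77 in Teffs (SD, n = 4 and 2, exact permutation p = 0.933).

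Pdk1 and Pdk3 encode kinases that switch off pyruvate dehydrogenase and so keep pyruvate out of mitochondria. Pdk1 was at 100.3, 2.07, 77.2 and 50.8 CPM across Treg 1 to Treg 4, against 53.4 and 44.0 CPM in Teffs. Pdk3 was at 0, 1.12, 5.07 and 22.9 CPM across Treg 1 to Treg 4, against 22.8 and 11.4 CPM in Teffs. Treg 2 was the lowest Treg for Pdk1, and Treg 1 was the lowest for Pdk3.

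Many members were uneven between libraries, though by zeros and by variation among Tregs less so than all genes tested. Treg 1 and Treg 2 were the lowest library for 9 and 11 of the 33 tested members, and Teff 2 was the lowest for 7. Ties at 0 (Pfkfb4, Vegfa and Ankrd37) were credited to the first library in order, here Treg 1 or Treg 2. Over the whole series, 9602, 9838, 12605 and 11074 genes had counts in Treg 1 to Treg 4, against 13197 and 11894 in Teffs. The part of this difference in the members' low values and zeros was not tested. No counts in at least 1 library were found for 6 members (against 33.4% of all genes tested). Treg 2 accounted for 4 of those members, namely Eno3, Vegfa, Bnip3 and Ankrd37. The median coefficient of variation of CPM among Tregs was 52.8% over tested members and 76.3% over all tested genes. In edgeR 20 of the 33 members turned sign when some single library was left out. Ndrg1, P4ha1, Bnip3l, Aldoc and Hif1a were among the 13 that kept theirs.

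Other genes of these pathways were examined as well, and none passed the test. Pfkfb1 was in both lists that follow and was counted in each, also among genes with every Treg library below both Teffs. Of 31 further glycolysis and branch genes tested, 0 rose and 0 fell, 19 had positive and 12 negative log2 fold changes, and the median was 0.10. Every Treg library was above both Teffs in 2 of these 31 and below both in 2. Of 41 further HIF pathway and hypoxia genes, 0 rose and 0 fell, 30 were positive and 11 negative, and the median was 0.39. In 5 of these 41 every Treg library was above both Teffs, and in 4 every Treg library was below both. Over all genes tested these shares were 5.52% above and 9.49% below. Arnt2, a partner subunit of HIF, was among the first, at 170, 131, 76.5 and 138 CPM across Treg 1 to Treg 4, against 15.97 and 25.7 CPM in Teffs (log2 fold change 2.63 ± 0.59, edgeR adjusted p = 0.378). Bhlhe40, a transcription factor induced by hypoxia and by T cell activation, was among the second, at 176, 1.91, 71.5 and 146 CPM in Tregs, against 509 and 358 CPM in Teffs (log2 fold change -2.13 ± 1.12, edgeR adjusted p = 1). Both were singled out after their values were seen.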

How the data were processed

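RNA was measured in 4 Treg and 2 Teff libraries, prepared with the ultra-low-input SMARTer chemistry, per the labels' protocols. Per the submitters' processing notes, the build was mm10 and the tools were TopHat2 2.0.12 with Bowtie2 2.1.0.0, HTSeq 0.6.1, SAMtools 0.1.19.0 and CASAVA 1.8.2, with no roles listed. The authors deposited raw counts per gene, and beside them their own log2 fold change and mean log2 CPM, with a p-value and a false discovery rate, per the file headers. The sources used here do not give the gene annotation or the strand setting.

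The 3 rows for unassigned reads held 88.0% to 90.2% of a column and were left out. Gene counts went into edgeR 4.0.16 (R 4.3.3, limma 3.58.1): filterByExpr (smallest count 10, 11775 of 15106 genes kept), TMM factors of 0.915 to 1.06, and the quasi-likelihood F test on group, coded Treg minus Teff, with Benjamini-Hochberg adjustment over all genes. SE is the absolute log2 fold change over √F, and the 95% interval uses the test's degrees of freedom. DESeq2 1.42.0 was an alternative. Log2 ratios within a library used a prior count of 2. Exon lengths and coordinates are from GENCODE M21 (GRCm38), promoters from RefSeq (GRCm38.p6). A floor of 3 counts was 0.402 to 0.612 CPM and covers counting error only. The fit was tested on simulated data, with the spread estimated here as a trend over genes. It called 1.09% of the log2 changes of 2 put in and 48.6% of those of 4. So 0 calls among members says little about log2 differences of 2 and does not exclude differences of 4.

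The members, their lists and the roles were chosen with earlier results of these data known. Full values are given for members whose groups did not overlap, the most abundant of each role and 7 set genes (Hif1a, Ldha, Ldhb, Hk1, Hk2, Egln3 and Vegfa); Aldoc and other examples were added after their values were seen. Alternatives were DESeq2 size factors, upper-quartile scaling, no filter, mean CPM of at least 10, an adjusted p of 0.01, each library left out and a block on the replicate number.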

Additional observations from a re-analysis of the deposited data

Results flagged for a closer look

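Hk1 in Treg 1 was at 205 CPM, against 76.5 to 86.4 CPM in the other 3 Treg libraries. Its gap to the nearest of them, divided by the range of the group, was above the 95% critical value of Dixon's test for 4 samples. It was the only flag among the members examined, and chance flags about 1 in 20 groups. Of the 34 members, Eno1 was not examined, as it was under 1 CPM in every Treg library. Both Teff libraries, at 152 and 150.3 CPM, lay between Treg 1 and the other Tregs. Without Treg 1 the log2 fold change of Hk1 was -0.92 (edgeR), against -0.44 with every library.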

How the results depend on the processing

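No alternative in edgeR called a member, and DESeq2 called 1 (Ndrg1). Over all genes edgeR called 5, against 19 with no filter, 183 with DESeq2, 15 with the replicate block, 0 at an adjusted p of 0.01 and 0 to 2 with 1 library left out. The causes were not tested. The members' median log2 fold change of 0.26 ran from 0.19 to 0.55 with 1 library left out, from 0.15 to 0.28 under other scalings and filters, and was -0.19 with the replicate block, which takes Treg 3 and Treg 4 out of the comparison and moved all genes by a median of -0.54. Deviations from the group mean correlated at -0.0417 (number 1) and 0.155 (number 2), and at 0.331 between Treg 3 and Teff 1. With 2 Teff libraries their deviations mirror each other, so this check cannot tell whether the numbers pair the libraries. Upper-quartile scaling moved all genes by a median of -0.11 and gave -0.05 for Pgm2 and -0.10 for Egln1. With the replicate block 15 members turned sign, several by less than that shift of all genes: Pfkl (-0.01), Pfkm (-0.53), Aldoa (-0.04), Gapdh (-0.20), Pgk1 (-0.32), Pgam1 (-0.34), Eno3 (-3.58), Ldhb (-1.24), Pdk1 (-1.69), Egln1 (-0.78), Egln3 (-0.34), Vegfa (-1.28), Bnip3 (-2.43), Ddit4 (-0.02), Ero1l (-0.55). With 1 library left out, the 20 members that turned sign had log2 fold changes of: Hk2 (-0.90 to 0.13), Gpi1 (-0.17 to 0.10), Pfkl (-0.04 to 0.25), Pfkp (-0.47 to 0.22), Aldoa (-0.14 to 0.56), Tpi1 (-0.01 to 0.86), Gapdh (-0.06 to 0.59), Pgk1 (-0.37 to 1.31), Pgam1 (-0.58 to 0.65), Pkm (-0.11 to 0.69), Ldhb (-0.32 to 0.73), Pfkfb3 (-0.11 to 0.44), Pfkfb4 (-1.08 to 9.42), Pdk1 (-0.17 to 0.64), Pgm2 (-0.21 to 0.23), Egln1 (-0.32 to 0.40), Egln3 (-0.65 to 1.51), Ankrd37 (-1.26 to 0.55), Ddit4 (-0.15 to 1.74), Mxi1 (-0.14 to 0.73). The paralog differences ranged likewise, from -0.85 to 0.41 (Ldha to Ldhb), -0.40 to 0.59 (Hk2 to Hk1), -0.75 to 0.24 (Pfkp to Pfkl) and -1.78 to 0.76 (Bnip3 to Bnip3l). Without Treg 3 and Teff 1 together, a setting added after seeing the data, 7 of 9 HIF targets were positive, with a median of 0.77.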
